A study of Mus musculus with 9 samples.

Results

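The 500 largest stretches of acetylated chromatin outside H3K4me3 peaks were described in lymphoma cells of the mouse thymus. Of 87072 H3K27ac peaks, 71073 (81.6%) overlapped no H3K4me3 peak by 1 bp, and these distal peaks were joined into 12511 stitched regions wherever the gap between neighbours was 12.5 kb or less. The regions were ranked by the summed length of their H3K27ac peaks, and the 500 with the largest sums were taken. The members were thus chosen by measured values. The ranking used the number and width of H3K27ac peaks and the lack of H3K4me3 under each of them, so these features are given as a description and support nothing. The cells came from T-cell lymphomas driven by MYCN in C57BL/6J mice, and all samples share this origin. Libraries were made by ChIPmentation, in which a transposase inserts the sequencing adapters while the chromatin is still held by the antibody. The series held 9 samples: 1 library for each of 7 antibodies (H3K27ac, H3K4me3, H3K27me3, p300, N-MYC, EZH2 and SUZ12), each with its own peak list, and 2 input libraries. The animal behind each immunoprecipitation is not stated in the labels, so differences between antibodies, libraries and animals cannot be told apart, and no value below has a replicate check or a p-value. The number of reads is not stated in the files either, so the depth behind each peak list is unknown.

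H3K27ac is laid down by the acetyltransferases p300 and CBP at active enhancers and promoters, while H3K4me3 marks promoters. Long clusters of acetylated enhancers, often called super-enhancers when ranked by signal, are known to lie near genes that define a cell's identity, in thymocytes for example near genes of the T-cell receptor and of lineage transcription factors. N-MYC binds DNA with MAX, preferably at E-boxes and mostly at active promoters. EZH2 is the catalytic subunit of Polycomb repressive complex 2, which holds SUZ12 and writes H3K27me3 on the same lysine that p300 acetylates.

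The cell type was checked by H3K4me3 within 1 kb of the start of marker genes. All 10 T-cell markers examined carried it (among them Cd3e, Lck, Cd5 and Bcl11b), as did 4 of 8 B-cell, 1 of 10 myeloid, 1 of 5 natural killer cell, 2 of 7 thymic epithelial and 0 of 8 endothelial and stromal markers. All 5 erythroid markers carried it as well: the authors' fold enrichment of H3K4me3 over background was 18.3 at Hba-a1, 19.7 at Hbb-bt, 12.1 at Gata1, 19.8 at Klf1 and 19.1 at Epor. The same enrichment was 24.2 to 41.8 at the T-cell markers. At the 4 B-cell markers it was 5.75 (Cd79b), 4.74 (Cd79a), 4.49 (Blnk) and 3.77 (Cd22). The remaining calls were Cebpa (6.81) for myeloid, Klrb1c (12.3) for natural killer, and Epcam (19.3) and Cdh1 (3.81) for thymic epithelial cells. Among all the markers examined, Cd247, Cd5, Tcf7, Cd79a, Pecam1, Hba-a1 and Hbb-bt lay within 50 kb of a large region. The part of other cell types in the lists was not tested.

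To show what the acetylated DNA looks like, annotated transcript starts that fell on an H3K27ac peak of a large region, off H3K4me3, were searched for p300 summits. There were 357 such windows (250 bases before to 50 after a start) and 3 of them held a p300 summit. They are printed with the starts of Ccnd3 and Cd5, genes of the lists below whose starts carried both N-MYC and p300 peaks. All are RefSeq sequence of GRCm38.p6, written 5′ to 3′ on the strand of the transcript. Capitals mark matches, on either strand, to 6 motifs: CACGTG (the E-box that MYC proteins prefer), CAGCTG (an E-box of the kind that other helix-loop-helix factors bind), TGTGGT (RUNX), AGATAA (zinc-finger factors of the GATA family), CTTTGA (TCF7 and LEF1) and AGGAAG (ETS). The E-boxes read alike on both strands, and no motif contains another.

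Btbd19, region ranked 481, chr4:117125609-117125908, minus strand: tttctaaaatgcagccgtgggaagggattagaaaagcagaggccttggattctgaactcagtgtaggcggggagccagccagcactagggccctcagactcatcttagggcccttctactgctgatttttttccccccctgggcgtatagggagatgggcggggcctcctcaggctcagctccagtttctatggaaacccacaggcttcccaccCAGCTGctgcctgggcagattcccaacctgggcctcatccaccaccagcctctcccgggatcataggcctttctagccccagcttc
Gm33728, region ranked 91, chr10:21252193-21252492, minus strand: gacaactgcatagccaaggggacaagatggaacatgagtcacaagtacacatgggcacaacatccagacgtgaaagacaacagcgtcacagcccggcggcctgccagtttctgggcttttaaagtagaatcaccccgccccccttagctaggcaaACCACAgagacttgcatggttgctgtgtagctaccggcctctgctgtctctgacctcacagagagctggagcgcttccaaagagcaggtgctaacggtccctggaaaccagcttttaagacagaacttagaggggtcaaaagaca
Gm33315, region ranked 117, chr13:52829022-52829321, plus strand: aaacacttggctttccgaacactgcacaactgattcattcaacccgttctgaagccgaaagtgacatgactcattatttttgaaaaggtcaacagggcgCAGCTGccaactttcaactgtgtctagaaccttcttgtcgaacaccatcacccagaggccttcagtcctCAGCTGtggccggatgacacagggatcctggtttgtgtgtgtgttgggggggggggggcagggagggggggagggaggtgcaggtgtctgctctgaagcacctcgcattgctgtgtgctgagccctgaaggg
Ccnd3, near the region ranked 107, chr17:47504801-47505100, plus strand: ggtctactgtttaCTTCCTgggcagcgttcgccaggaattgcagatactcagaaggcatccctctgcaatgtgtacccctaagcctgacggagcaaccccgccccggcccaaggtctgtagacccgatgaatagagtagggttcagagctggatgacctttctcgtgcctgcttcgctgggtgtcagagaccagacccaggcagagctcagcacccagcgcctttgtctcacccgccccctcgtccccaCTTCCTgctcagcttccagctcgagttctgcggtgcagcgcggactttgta
Cd5, near the region ranked 118, chr19:10738925-10739224, minus strand: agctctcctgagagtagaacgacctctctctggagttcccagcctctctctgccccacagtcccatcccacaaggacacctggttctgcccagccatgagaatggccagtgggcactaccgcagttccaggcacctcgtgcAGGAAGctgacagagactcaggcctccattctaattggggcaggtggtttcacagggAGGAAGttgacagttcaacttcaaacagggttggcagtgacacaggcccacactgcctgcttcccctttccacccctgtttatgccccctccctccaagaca

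The window of Gm33728 lies in the interval between Hbs1l and Myb, the gene of a transcription factor of immature blood cells. Its region ranked 91, its H3K27ac peak had a fold enrichment of 18.98, and N-MYC (5.17) and p300 (4.28) peaks overlapped it without H3K4me3. The region began 60.6 kb from the Myb gene and held 7 p300 peaks, none of them on H3K4me3. The Gm33315 window carried H3K27ac (13.4), N-MYC (5.04) and p300 (3.99), and the Btbd19 window carried H3K27ac (19.05) and p300 (3.55) without N-MYC. None of the 3 windows held CACGTG. The starts of Ccnd3 and Cd5, in contrast, carried H3K4me3 at 47.8 and 24.9.

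Over the 357 windows on acetylated peaks of the large regions, CAGCTG occurred in 25.2% (95% Wilson interval 21.0 to 29.96%) and CACGTG in 4.48% (2.78 to 7.16%). Among all 32851 promoter windows of the same length the shares were 16.3% for CAGCTG and 7.15% for CACGTG. RUNX matches occurred in 21.8% of the 357 and 16.8% of all windows, GATA matches in 15.1 and 11.2%, TCF matches in 19.3 and 16.0%, and ETS matches in 38.1 and 35.4%. The 889 windows on the other distal H3K27ac peaks gave 21.1% for CAGCTG, 6.64% for CACGTG and 25.2% for the RUNX motif. They gave 15.1% for AGATAA, 19.1% for CTTTGA and 46.7% for AGGAAG. The intervals of the large and the other regions overlapped for both E-boxes, the RUNX motif, AGATAA and CTTTGA. For AGGAAG, less frequent in the large regions, they nearly touched without overlapping (33.2 to 43.2% against 43.4 to 49.97%). These matches describe letters in a window and not bound sites.

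The 500 regions held 19484 H3K27ac peaks, 27.4% of the distal peaks, and 16.1 of 46.9 Mb of distal acetylated DNA (34.4%). The summed acetylated length ran from 18352 to 126010 bp with a median of 26651 bp, against a median of 1283 bp over all stitched regions. A region spanned a median of 75.2 kb (22.0 to 393.7 kb) and held between 5 and 157 peaks (median 34), which covered a median of 39.7% of the span. The median fold enrichment of their peaks was 3.88, against 3.86 for distal peaks elsewhere, and the median width was 406 bp against 350 bp. The large regions held 895 peaks of 3200 bp and over, against 772 elsewhere. The highest fold enrichment in a region had a median of 11.1, against 4.85 over all stitched regions. It was taken over a median of 34 peaks in the large regions and 2 over all, so these medians are not like for like. The curve of sizes had no step at rank 500, since the last 2 regions inside had sums of 18368 and 18352 bp and the first 2 outside 18328 and 18324 bp.

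**Figure D1:**
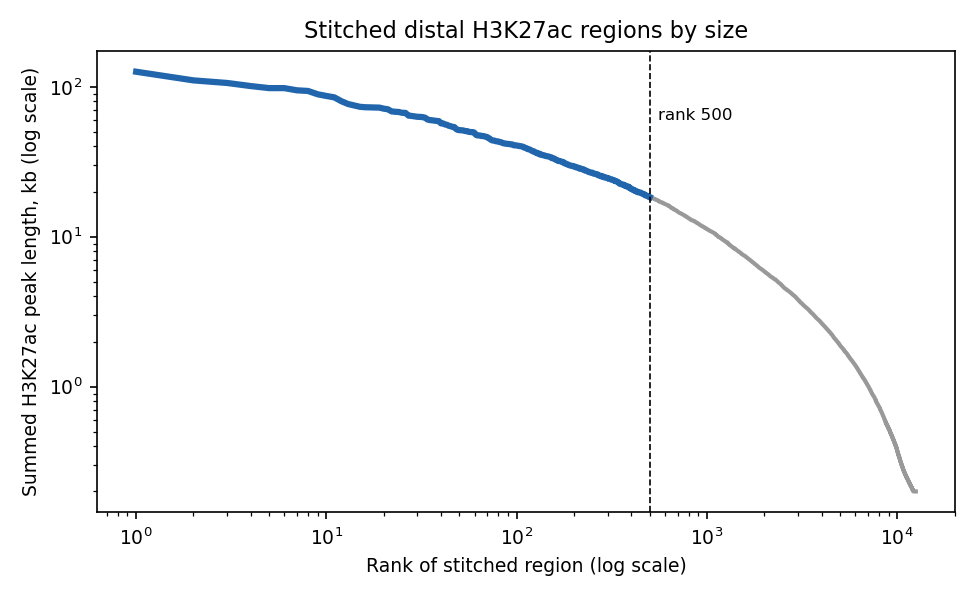
Summed length of the H3K27ac peaks of each stitched region in kb (log scale) against its rank (log scale). The 500 largest regions, in blue, run from 126.0 to 18.4 kb, and the curve passes rank 500 without a break.

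The largest region (chr13:51726016-52119682) overlapped Sema4d, a semaphorin of lymphocytes, and Gadd45g, a stress-response gene. It held 157 H3K27ac peaks with 8 p300 and 4 N-MYC peaks off H3K4me3. The second (chr13:111897271-112128213) had 139 H3K27ac peaks and no protein-coding gene within 50 kb. It lay 79.0 kb from Map3k1, the gene of a MAP kinase kinase kinase, and held 2 p300 peaks and 1 N-MYC peak. The third overlapped Klf13, a Krüppel-like transcription factor of T cells, and had 7 p300 peaks and 1 N-MYC peak off H3K4me3. These 3 regions had 126010, 110340 and 106058 bp of acetylated DNA, so they were of like size but differed in how many factor peaks they held.

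Rank 4 overlapped Celsr1, a cadherin of cell polarity, and Gramd4, with 1 p300 and 1 N-MYC peak off H3K4me3. Rank 5 overlapped Cebpb, the gene of a bZIP transcription factor, with 2 p300 peaks, 3 N-MYC peaks and 1 EZH2 peak off H3K4me3. Ranks 6 (Afap1 and Sorcs2), 7 (Gse1), 9 (nearest gene Cd24a, a surface antigen of immature lymphocytes) and 10 (Vps13d and Dhrs3, a retinal reductase) had 2, 1, 1 and 1 p300 peaks off H3K4me3. Rank 8, 1.12 kb from Cpeb4, which encodes a regulator of mRNA polyadenylation, had 104 H3K27ac peaks over 151.3 kb and neither p300, N-MYC nor EZH2. The factors were thus unevenly spread even among the 10 largest regions.

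p300 peaks lay inside 404 of the 500 regions (80.8%, 77.1 to 84.0%), against 20.3% of all stitched regions. The stitching also bridged promoters: 321 regions (64.2%) had at least 1 H3K4me3 peak within their span, 821 such peaks in all and up to 12 in 1 region. Of the 404 regions, 312 (62.4% of the 500, 58.1 to 66.5%) held a p300 peak off H3K4me3, against 12.6% of all stitched regions. This share was 62.6% in regions with an H3K4me3 peak in their span and 62.0% in those without. In consecutive sets of 100 regions from the largest, 77, 63, 66, 56 and 50 held such a p300 peak. Among the next 500 regions by rank the share was 48.6% (44.2 to 53.0%).

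N-MYC peaks were inside 322 regions (64.4%, 60.1 to 68.5%), against 15.4% of all, and N-MYC peaks off H3K4me3 were inside 194 (38.8%, 34.6 to 43.1%), against 8.22%. Among the next 500 regions by rank, 48.2% held N-MYC and 28.2% held it off H3K4me3. Off H3K4me3, p300 and N-MYC were both found in 34.0% of the 500 largest regions and neither in 32.8%. There p300 without N-MYC was found in 28.4% and N-MYC without p300 in 4.8%. Over all stitched regions the shares were 5.07% for both, 84.2% for neither, 7.55% for p300 alone and 3.15% for N-MYC alone. At the level of single peaks, 171 of 277 N-MYC peaks off H3K4me3 in the large regions overlapped p300 (61.7%, 55.9 to 67.3%), against 49.9% (46.7 to 53.2%) in the other stitched regions. In the reverse direction, 23.8% of p300 peaks off H3K4me3 in the large regions overlapped N-MYC, against 26.5% elsewhere. N-MYC peaks in these regions therefore mostly sat with p300, while most p300 peaks had no N-MYC call.

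A region with more acetylated DNA has more room for a factor peak, so the lists were also read per length. The large regions held 0.845 p300 peaks per 10 kb of acetylated DNA, against 1.23 in all other stitched regions, and 0.442 against 0.559 when H3K4me3 was set aside. N-MYC had 0.405 per 10 kb against 0.679, and EZH2 had 0.229 against 0.442. Off H3K4me3, p300 had 0.622 peaks per 10 kb in the next 500 regions, 0.600 at the ranks from there to 2000 and 0.509 below rank 2000, so the density was lowest in the largest 500 but did not go on rising as regions became smaller. Acetylated length was also the quantity ranked, and per 100 kb of span the order for p300 off H3K4me3 was the other way, with 1.71 peaks in the large regions against 1.64 in all others. Counting all p300 peaks, the density per span was 3.27 against 3.61. For N-MYC and EZH2 off H3K4me3 it was lower in the large regions, at 0.665 against 0.873 and 0.115 against 0.219 per 100 kb of span. The order of the p300 densities off H3K4me3 therefore depended on the length used.

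**Figure D2:**
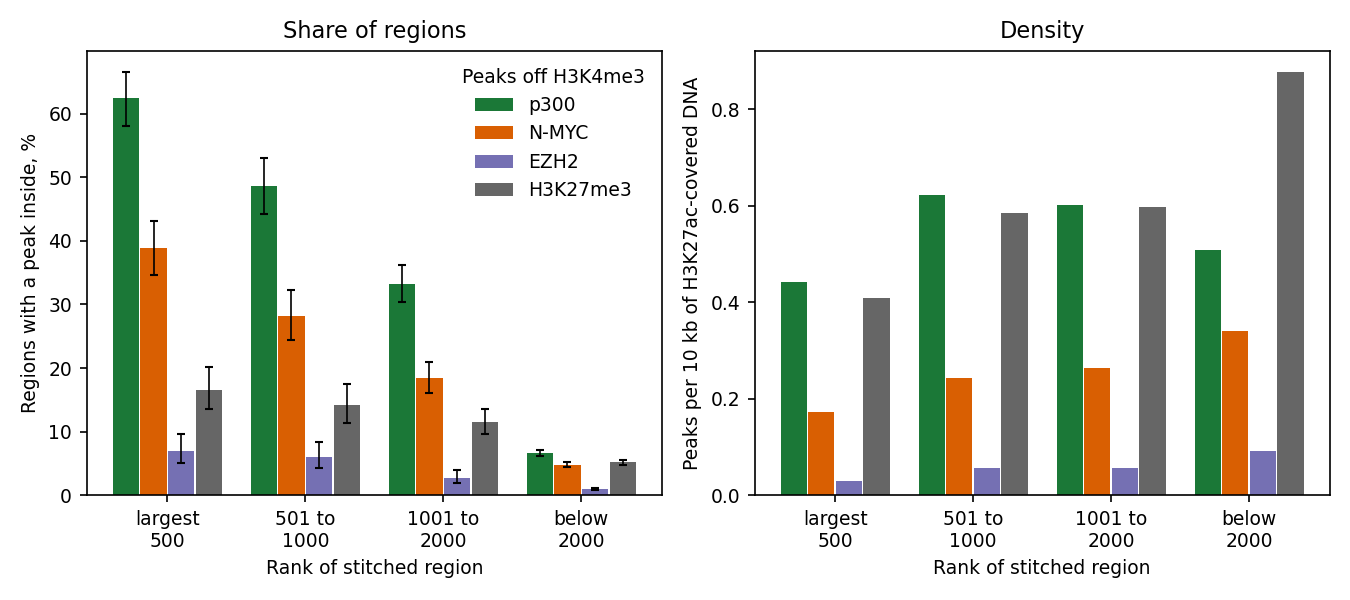
Stitched regions by rank class, counting only peaks off H3K4me3. Left, share of regions with at least 1 p300, N-MYC, EZH2 or H3K27me3 peak inside in percent (bars, 95% Wilson intervals); right, number of these peaks per 10 kb of H3K27ac-covered DNA. The p300 share falls from 62.4% in the largest 500 to 6.57% below rank 2000, whereas the p300 density is 0.442 in the largest 500 and 0.622 in the next 500.

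The 713 p300 peaks off H3K4me3 inside the large regions made up 24.3% of the 2937 such peaks of the list, and 633 of them (88.8%) lay on an H3K27ac peak of the region. Their median fold enrichment was 3.85, against 3.86 in the other stitched regions. N-MYC had 277 of 1522 (18.2%), and EZH2 had 48 of 8853 (0.542%). Off H3K4me3, 2435 p300, 1192 N-MYC and 277 EZH2 peaks lay in any stitched region. The distal EZH2 list therefore mostly lay outside all stitched regions. Of the peaks in any stitched region, the large regions held 29.3% for p300, 23.2% for N-MYC and 17.3% for EZH2. They held 34.4% of the distal acetylated DNA.

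Most acetylated peaks had no p300 call. Of the 19484 H3K27ac peaks of the large regions, 466 overlapped p300 (2.39%, 2.19 to 2.62%), against 2.57% of all distal H3K27ac peaks and 2.63% (2.4996 to 2.78%) of those outside the large regions. The peaks that did were wide and strong: their median width was 4148.5 bp and their median fold enrichment 10.9, against 397 bp and 3.86 for peaks without p300. Among peaks of 3200 bp and over, 34.4% (31.4 to 37.6%) carried p300 in the large regions and 45.9% (42.4 to 49.4%) elsewhere. In the class from 1600 to under 3200 bp the shares were 7.62 and 18.1%, and they were also lower in the large regions in each narrower class. In 207 of the 291 regions with p300 on an H3K27ac peak (71.1%), p300 lay on the peak with the highest H3K27ac enrichment of that region, out of a median of 33 peaks.

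N-MYC overlapped 1.22% (1.07 to 1.38%) of the H3K27ac peaks in the large regions, against 1.56% of all distal peaks. On peaks of 3200 bp and over the share was 15.9% (13.6 to 18.4%) in the large regions and 19.3% (16.7 to 22.2%) elsewhere, with overlapping intervals. In the class from 1600 to under 3200 bp it was 4.98% (3.93 to 6.29%) and 10.5% (9.43 to 11.7%), and over all widths elsewhere it was 1.69% (1.58 to 1.81%). EZH2 overlapped 0.123% of the peaks, against a background of 0.224%, SUZ12 0.0924%, against 0.219%, and H3K27me3 2.26%, against 2.61%. The intervals of the large and the other regions did not overlap for N-MYC, EZH2, SUZ12 and H3K27me3 over all widths, with the lower share in the large regions.

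**Figure D3:**
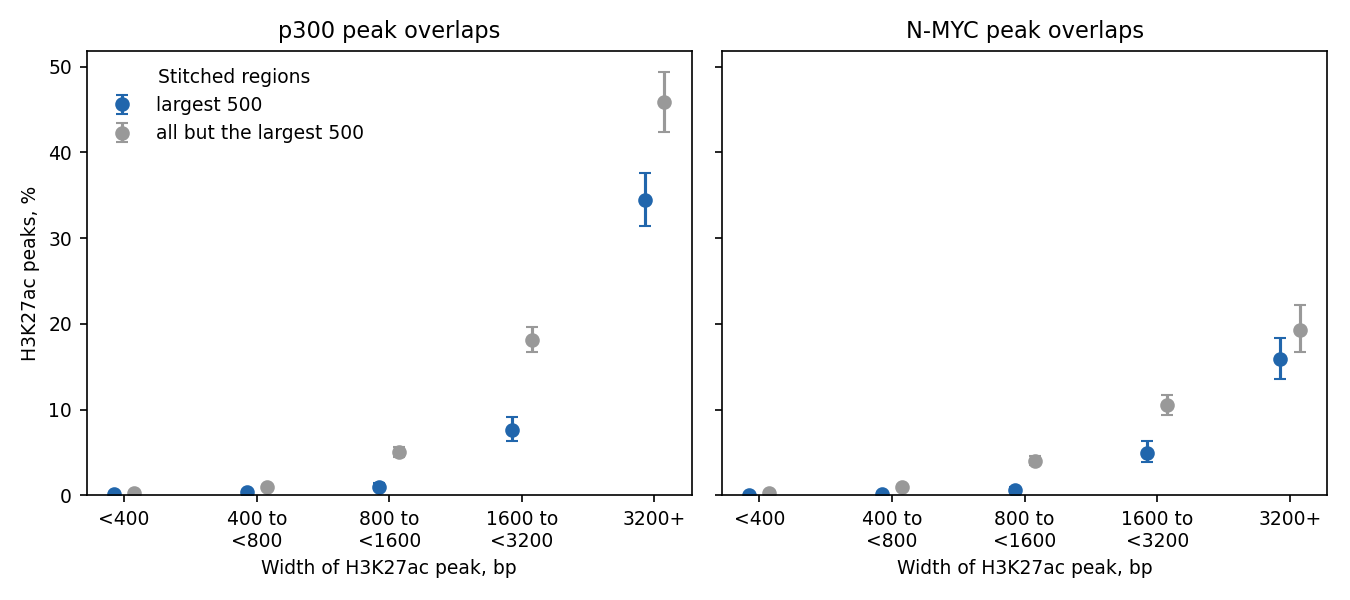
Share of distal H3K27ac peaks in percent that overlap a p300 peak (left) or an N-MYC peak (right), by width of the H3K27ac peak in bp. Points are shares with 95% Wilson intervals, blue for the 500 largest regions and grey for all other stitched regions. The p300 share rises from 0.115% under 400 bp to 34.4% at 3200 bp and over in the large regions, and stays below the grey points in each class.

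The highest number of p300 peaks off H3K4me3 in a region was 8. There were 8 p300 peaks each were found at rank 1, at rank 11 (chr9:41035785-41214381) and at rank 82 (chr5:134213946-134284714), and also at ranks 220 and 404, which follow by rank. Rank 11 overlapped Ubash3b, a phosphatase that dampens T-cell receptor signalling, and reached within 50 kb of Crtam, a receptor of activated T cells. It also held 4 N-MYC peaks off H3K4me3, up to a fold enrichment of 6.20. Rank 82 overlapped Gtf2i, Gtf2ird2 and Ncf1, a subunit of the phagocyte NADPH oxidase. It had no N-MYC peak at all beside its 8 p300 peaks, which reached a fold enrichment of 6.08.

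The most N-MYC peaks off H3K4me3 were found at rank 340 (chr1:181217443-181300216), which had 5 of them beside 6 p300 peaks. The region overlapped Wdr26, a subunit of an E3 ubiquitin ligase, and Cnih4 lay within 50 kb. Ranks 1 and 11 had 4 each, as did ranks 23, 72, 115 and 200, which follow by rank. The highest N-MYC enrichment off H3K4me3 was 5.14 at rank 340, 7.003 at rank 1 and 6.20 at rank 11, so that the region with the most peaks did not have the strongest one of the 3.

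**Figure D4:**
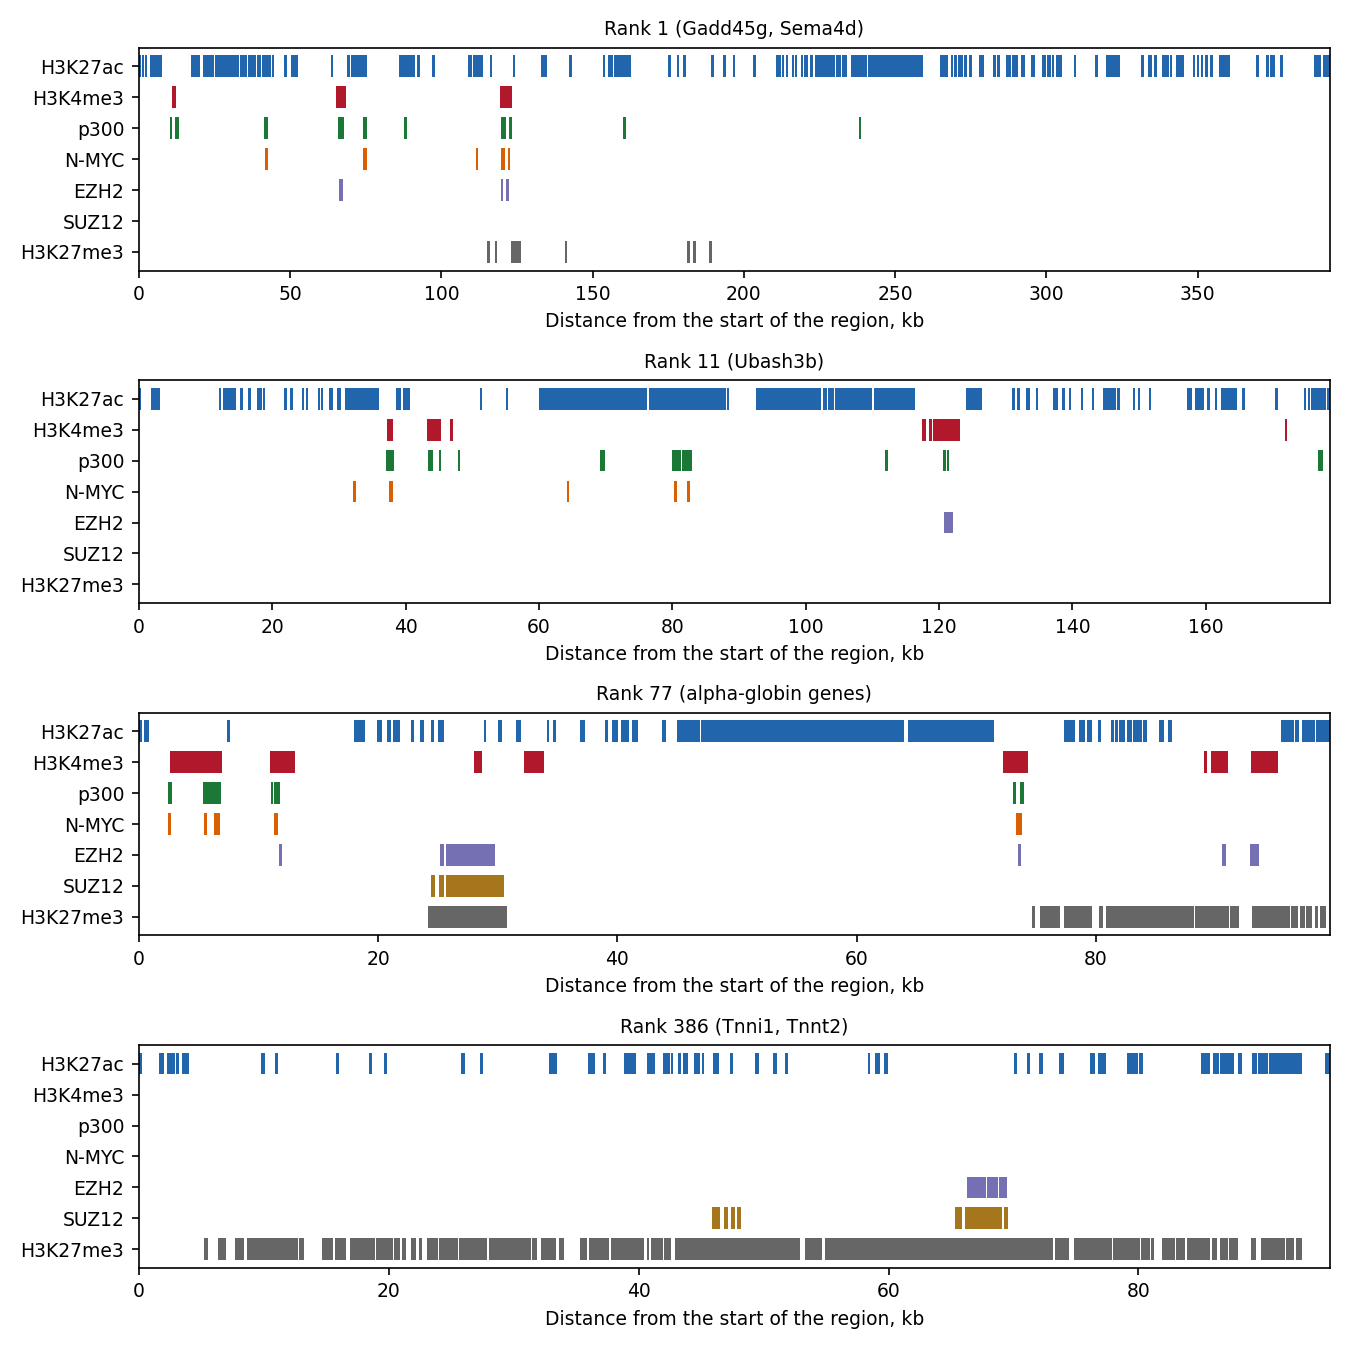
Peaks of the 7 lists in the spans of 4 large regions, by distance from the region's start in kb (bars, drawn at least 0.2% of the span wide; for H3K27ac only the distal peaks that were stitched are drawn). Ranks 1 and 11 show p300 and N-MYC both on and off H3K4me3, rank 77 (alpha-globin genes) shows EZH2, SUZ12 and H3K27me3 beside a long acetylated block, and rank 386 shows H3K27me3 over 78.7% of its span and no p300, N-MYC or H3K4me3 peak.

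EZH2 peaks lay inside 198 regions (39.6%, 35.4 to 44.0%), against 8.81% of all stitched regions. Of the 369 EZH2 peaks in the spans, 321 (87.0%) lay on an H3K4me3 peak, and only 35 regions (7.0%, 5.08 to 9.58%) held one off H3K4me3, against 1.54%. EZH2 was present in 58.9% of the regions with an H3K4me3 peak in their span and in 5.03% of those without. Inside the large regions EZH2 was thus mostly found at the promoters they bridge and seldom on their acetylated body. This was not particular to them, since 229 of 1362 EZH2 peaks in the other stitched regions lay off H3K4me3. Among the next 500 regions by rank, 6.0% held an EZH2 peak off H3K4me3. Of the 48 EZH2 peaks off H3K4me3, 24 overlapped SUZ12 or H3K27me3 and 19 overlapped an H3K27ac peak of the region.

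Regions with the highest EZH2 enrichment off H3K4me3 fell into different kinds. Rank 181 (Phospho1, Abi3 and Gngt2; EZH2 10.8) held 7 SUZ12 peaks off H3K4me3 and 11.9 kb of H3K27me3. Rank 386 (EZH2 6.20) held 7 SUZ12 peaks. Rank 346 (EZH2 6.96) and rank 395 (Snx29; EZH2 6.66) had no SUZ12 and no H3K27me3 peak, and carried 5 and 2 p300 peaks and 2 and 1 N-MYC peaks, all off H3K4me3. Rank 346 (chr14:54208118-54233365) lies 2.12 kb from Dad1, the gene next to the T-cell receptor alpha locus, whose enhancer is known to lie between them. It was also the most densely acetylated of the 500, with 9 peaks covering 89.7% of its 25.2 kb.

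The 821 H3K4me3 peaks bridged by the large regions had a median fold enrichment of 9.14, against 15.9 for all other H3K4me3 peaks. EZH2 overlapped 31.5% of them (28.5 to 34.8%), against 48.5% of all H3K4me3 peaks, while p300 overlapped 54.1% against 54.4% and N-MYC 39.1% against 43.7%. SUZ12 lay on 1.34% against 8.37% and H3K27me3 on 3.05% against 12.1%. Because EZH2 overlap rises with H3K4me3 strength, the peaks were split by quartile of H3K4me3 enrichment. In the weakest quartile EZH2 lay on 1.47% (0.571 to 3.71%) of the bridged and 11.1% (10.1 to 12.1%) of the other H3K4me3 peaks, and p300 on 19.05% (14.8 to 24.1%) and 9.09% (8.23 to 10.03%). In the strongest quartile the EZH2 shares were 97.8 and 97.7% and the p300 shares 97.8 and 95.5%. In the second quartile the EZH2 shares were 8.58 and 23.6% and the p300 shares 49.8 and 30.7%. In the third they were 57.2 and 63.3% for EZH2 and 80.0 and 80.3% for p300. In the weakest and second quartiles the bridged peaks thus had p300 more often and EZH2 less often, with intervals that did not overlap. In the third and strongest quartiles the intervals overlapped. The other H3K4me3 peaks include those bridged by smaller stitched regions, which were not read apart. Whether the difference is particular to the large regions was therefore not tested.

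H3K27me3 and SUZ12 were rare but not absent. H3K27me3 peaks lay in 88 regions (17.6%, 14.5 to 21.2%), against 7.06%, and off H3K4me3 in 83 (16.6%), against 6.5%. SUZ12 peaks lay in 19 (3.8%, 2.45 to 5.86%), against 1.45%, and off H3K4me3 in 12 (2.4%), against 1.12%. Among the next 500 regions by rank, 15.6% held H3K27me3 and 4.6% held SUZ12. Per 10 kb of acetylated DNA, H3K27me3 had 0.427 peaks in the large regions against 0.805 in all others. SUZ12 had 0.0285 against 0.0961. H3K27me3 covered 601.3 kb of the spans, and 17 regions with over 10 kb each held 71.8% of it. Of those 17 regions 4 (23.5%, 9.56 to 47.3%) held a p300 peak off H3K4me3. Such a peak lay in 33 of 71 regions with less H3K27me3 (46.5%, 35.4 to 58.0%). Among regions without any H3K27me3 it lay in 275 of 412 (66.7%, 62.1 to 71.1%). The intervals of the 17 and the 71 regions overlapped, and both lay below that of the regions without H3K27me3.

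Rank 386 (chr1:135851386-135946702) overlapped Tnnt2, the cardiac troponin T gene, and Pkp1, which encodes a protein of desmosomes, with Tnni1, a troponin of slow muscle, within 50 kb. It had 74.98 kb of H3K27me3 over its 95.3 kb span, and H3K27me3 covered 81.1% of its acetylated DNA. Rank 170 (chr12:69730685-69826126; Cdkl1, Map4k5 and Dmac2l) had 56.9 kb, and rank 126 (chr2:103873604-103965550) had 45.6 kb. Rank 126 overlapped Lmo2, a transcriptional cofactor of early progenitors and an oncogene of T-cell leukaemia. All 3 lacked p300 and N-MYC peaks. Whether both marks occur on the same molecules, in different cells or in different animals cannot be told apart in these lists.

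A protein-coding gene lay within 50 kb of 488 of the 500 regions (97.6%, 95.9 to 98.6%). The share was 90.7% over all stitched regions and 96.0% (93.9 to 97.4%) among the next 500 by rank. A gene body was overlapped by 446 (89.2%), against 65.7% of all stitched regions and 82.2% of the next 500. Among single distal H3K27ac peaks, 64.0% of the summits lay in a gene body in the large regions and 60.4% elsewhere. Together 1748 of 21883 protein-coding genes lay within 50 kb of a large region, 7.99% of all. Their bodies had a median length of 22.0 kb, against 17.2 kb for all protein-coding genes. Among genes with H3K4me3 at their start 1282 of 11152 were near (11.5%), and among genes without it 4.34%. Distance is a description and names no target gene. Exon and intron positions were not analysed here.

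The 12 regions without a protein-coding gene within 50 kb included 3 whose nearest such gene is well known. These 3 were singled out after their values were seen. Rank 2 was nearest to Map3k1. Rank 27 (chr16:93051184-93225300) lay 225.1 kb from Runx1, a RUNX factor needed for T-cell development, and held 102 H3K27ac peaks with 1 p300 peak (5.77) and 1 N-MYC peak (8.65). Rank 111 (chr15:62075808-62190609) lay 85.4 kb from Myc, the relative of Mycn, and held 74 H3K27ac peaks without any p300, N-MYC or EZH2 peak. Within 1 kb of either end of Myc, EZH2 reached 13.96, SUZ12 11.4 and H3K27me3 8.23. H3K4me3 reached 11.1 and H3K27ac 3.63 there, without p300 or N-MYC. Runx1 itself was overlapped by a second region, rank 34, with 56 H3K27ac peaks and 2 p300 peaks off H3K4me3.

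Of 163 genes in 8 lists chosen for this tissue, 30 (18.4%, 13.2 to 25.1%) lay within 50 kb of a large region, against 7.99% of all protein-coding genes. Since most list genes are active, the closer background is that of genes with H3K4me3 at their start: 28 of 129 such list genes were near (21.7%, 15.5 to 29.6%), against 11.5%. The lists were chosen with results of these data known, so these shares are a description. The 30 genes had 29 nearest regions, of which 18 (62.1%) held p300, 12 (41.4%) held N-MYC and 0 held EZH2 off H3K4me3. The shares over all 500 regions were 62.4, 38.8 and 7.0%, so the p300 and N-MYC shares were near those of all members.

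T-lineage transcription factors had 8 of 30 genes near a large region. They were Tcf7, the effector of WNT and NOTCH signals in early T cells (rank 202), Runx1 (34), Runx3, a factor of the CD8 lineage (119), Ikzf1 and Ikzf3 of the Ikaros family (189 and 270), Id3, an inhibitor of E proteins (307), the receptor gene Notch3 (90) and Nfatc1, a calcium-regulated factor (44). Nfatc1 had 6 p300 peaks off H3K4me3 in its region and no N-MYC. Within 1 kb of either end of Nfatc1, EZH2 reached 13.1, SUZ12 9.40 and H3K27me3 8.95. H3K27me3 also reached 7.28 at the start of Runx3, 6.07 at that of Notch3 and 4.78 within 1 kb of either end of Ikzf3. The other genes of the 8 had no H3K27me3 peak there. The Tcf7 region had 5 p300 and 2 N-MYC peaks off H3K4me3. The Ikzf1 region held 34 H3K27ac peaks and neither p300, N-MYC nor EZH2, although the Ikzf1 start carried p300 at 9.49 and N-MYC at 8.26. Bcl11b, the factor that fixes T-cell commitment, lay 711 kb from the nearest large region and Myb 60.6 kb, so both fell outside the count.

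Cytokine and chemokine receptors and homing genes had the largest share of the 8 lists, with 8 of 20 near. Il2rb, a chain of the interleukin 2 and 15 receptors, was overlapped by rank 106, which held 39 H3K27ac peaks and no p300, and the gene carried no H3K4me3 within 1 kb of either end. A second large region, rank 14, lay within 50 kb of Il2rb and held 2 p300 peaks and 1 N-MYC peak off H3K4me3. Cxcr4, the receptor that holds thymocytes and progenitors to CXCL12, was overlapped by rank 55 with 2 p300 peaks off H3K4me3. Ccr7, which guides T cells to lymph nodes, lay in rank 194 with 5 p300 and 3 N-MYC peaks off H3K4me3. Ccr4 was 31.1 kb from rank 200 with 3 p300 and 4 N-MYC peaks, all off H3K4me3. Cxcr5 (rank 221), Selplg, the ligand of P-selectin (188), and Il21r and Il4ra (both 344) completed the list. N-MYC off H3K4me3 was absent from the nearest regions of Cxcr4, Cxcr5, Il2rb and Selplg and present in those of Ccr4, Ccr7 and Il21r.

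The list of T-cell leukaemia oncogenes and cell cycle genes had 6 of 26 near. Ccnd3 and Cdk6 encode cyclin D3 and its kinase, which drive the growth of thymocytes. The Ccnd3 region (rank 107) held 4 p300 peaks and 1 N-MYC peak, all off H3K4me3, and the Cdk6 region (rank 220) held 8 p300 peaks and 1 N-MYC peak off H3K4me3. Pim1, a kinase gene that cooperates with MYC in lymphoma, was 10.8 kb from rank 150, whose 2 p300 and 2 N-MYC peaks were all on H3K4me3. Jak1 (rank 169) and Pik3r1 (rank 161), which encode a cytokine receptor kinase and a regulator of PI3 kinase, had 1 p300 peak each and no N-MYC. Mcl1, an anti-apoptotic gene, lay in rank 411 with 3 p300 peaks and 1 N-MYC peak off H3K4me3.

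T-cell receptor and co-receptor genes had 3 of 28 near: Cd247, the zeta chain of the receptor complex (rank 367), Cd5 (118) and Cd6 (162). The Cd3 genes and Lck were farther than 50 kb from every large region, although their starts carried H3K4me3 at 24.3 to 36.3. H3K4me3 was found at 26 of these 28 genes, all but Cd8a and Cd8b1. Of the early thymocyte and recombination genes, 2 of 15 were near, Dtx1 (rank 478) and Lmo2 (rank 126). Only 5 of those 15 genes carried H3K4me3, and Dtx1 did not. Within 1 kb of the start of Dtx1, and of either end of Lmo2, H3K27me3 reached 12.7 and 12.9. None of 14 follicular helper and checkpoint genes was near. Polycomb and acetylation genes had 1 of 15 (Eed, the subunit that reads H3K27me3, 41.8 kb from rank 211), and MYC-family targets and housekeeping genes had 2 of 15. These were Ncl, the nucleolin gene, 33.9 kb from rank 210, and Odc1, the rate-limiting enzyme of polyamine synthesis, in rank 341. Their starts had N-MYC at 17.1 and 14.8, and neither of these nearest regions had an N-MYC peak off H3K4me3.

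**Figure D5:**
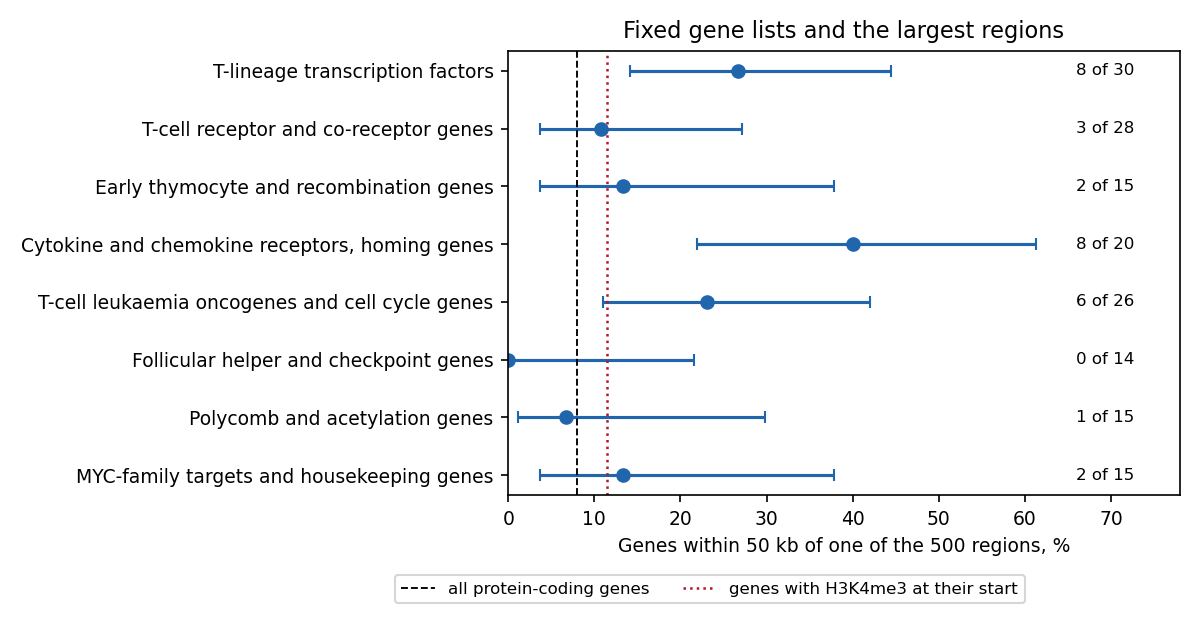
Share of the genes of each list within 50 kb of a large region in percent (points, 95% Wilson intervals; counts at the right). The dashed line marks all protein-coding genes (7.99%) and the dotted line genes with H3K4me3 at their start (11.5%); receptor and homing genes (40.0%) and T-lineage transcription factors (26.7%) lie to the right of both lines with their intervals, and the intervals of the other lists reach at least 1 of the lines.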

How the data were processed

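The deposited peak lists of 7 immunoprecipitations, 1 sample each, were used, and the 2 input libraries were not used. The submitters' processing notes name Bowtie2, SAMtools, MACS2, FastQC, deepTools and the builds mm10 and GRCm38, without roles. Whether inputs served as controls or libraries were pooled is not given in the sources used here. Enrichment is a linear fold ratio over background, taken as deposited by the authors. The p-values and q-values are −log10 values as deposited by the authors, and the lists end at a −log10 q of 2.00 to 2.08, so weaker sites are not listed. Only a q limit used these values.

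Peaks on 21 chromosomes entered, and 1 bp of overlap counted. Shares have 95% Wilson intervals, which cover counting error only and treat regions or peaks as independent. Genes, starts and sequences came from RefSeq tables of GRCm38.p6, the build the notes name. All 163 list genes matched. Gene distance is from the region to the gene body, and only protein-coding genes were used for it. Starts were listed for 17491 of 21883 protein-coding genes, and either gene end was read for the rest. As a check of the build, 50.04% of H3K4me3 summits had a protein-coding start within 1 kb.

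Regions described singly were the 10 largest, the 3 with most p300 and the 3 with most N-MYC peaks off H3K4me3, the 5 with the highest EZH2 enrichment off H3K4me3 and the 3 with most H3K27me3. Of the 5, 1 is not reported here. Genes named were those at these regions and list genes within 50 kb, whose nearest regions are described too. Rank 91 is described because it holds a printed window, and ranks 14, 27, 77, 111 and 309 were singled out after their values were seen. The members and lists were chosen with earlier results of these data known, and the splits by H3K4me3 quartile, sets of 100 regions and H3K27me3 length and the windows on acetylated peaks were added after seeing values. Stitching and overlap were tested on simulated data and against bedtools 2.31.1. Python 3.11.15, pandas 2.3.3 and numpy 2.4.6 were used. A total of 49 alternatives covered the stitching gap, the ranking, H3K4me3 breaks, a q limit, overlap and gene distance.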

Additional observations from a re-analysis of the deposited data

How the results depend on the processing

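Of 49 alternatives over 12 results, 14 stayed within the spread used and 35 moved. No paired analysis was possible because no antibody has more than 1 library, and leaving out a replicate could not be done for the same reason. With no replicates, read numbers or input lists, intervals cover counting error only, and the cause of each shift was not tested. With a stitching gap of 5000 bp, the shares of regions with p300, N-MYC, EZH2, SUZ12 and H3K27me3 were 57.6, 35.8, 9.6, 1.6 and 10.4%, and the median p300 density (0.694 peaks per 10 kb as reported) was 0.376. The shares over all regions so stitched fell as well, to 10.5, 7.03 and 1.97% for p300, N-MYC and EZH2. With stitching broken at H3K4me3 peaks they were 55.4, 32.8, 4.4, 1.6 and 11.8%, with a density of 0.298, against 10.3, 6.80 and 1.27% of all such regions with p300, N-MYC and EZH2. Ranking by width times fold enrichment gave 85.8% for p300, 13.4% for H3K27me3 and a density of 0.835, and 3.05, 1.45 and 1.70% of H3K27ac peaks with p300, N-MYC and H3K27me3. Limiting the other lists to a q of 1e-05 gave 71.6% for p300, 59.8% for N-MYC, 35.0% for EZH2 and a density of 0.452, and 1.66, 1.03, 0.0667 and 1.95% of H3K27ac peaks with p300, N-MYC, EZH2 and H3K27me3. Off H3K4me3, the shares were 62.4% for p300, 38.8% for N-MYC, 7.0% for EZH2 and 2.4% for SUZ12, with a density of 0.352. Asking for 50% of the shorter peak gave 0.0719% for EZH2. Gene distances of 10 and 100 kb gave 93.6 and 98.8% of regions near a gene, and 1000 regions had 52 list genes near. Of the 500 regions, 362, 411 and 403 were overlapped by a region of the 3 rebuilt sets.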

Other observations

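The globin clusters lay inside large regions. Rank 77 (chr11:32193853-32293418) spanned Hba-x, Hba-a1 and Hbq1b of the alpha-globin cluster together with Nprl3, whose introns are known to hold alpha-globin enhancers, and had 43526 bp of acetylated DNA. Its 6 p300 and 5 N-MYC peaks all lay on H3K4me3, and it held 6 EZH2 and 3 SUZ12 peaks and 27.4 kb of H3K27me3. Rank 309 (chr7:103807747-103876882) spanned the beta-globin genes Hbb-bt, Hbb-bs, Hbb-bh2, Hbb-bh1 and Hbb-y with 31 H3K27ac peaks and 3 H3K4me3 peaks, and held no p300, N-MYC, EZH2, SUZ12 or H3K27me3 peak. Hba-a1 and Hba-a2, and likewise Hbb-bs and Hbb-bt, are near-identical copies, so peaks there cannot be assigned with certainty. The part of erythroid cells was not tested.

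The large regions were spread over all autosomes, from 11 on chromosome 3 and chromosome 18 to 48 on chromosome 2. On chromosome 15 they held 44.9% of the distal acetylated DNA and on chromosome 3 19.6%. None of the 241 stitched regions on the X chromosome was among the 500. Of 1005 microRNA hairpins, 41 lay in the spans, among them Mir21a (rank 401), Mir326 (382), Mir126a and Mir126b (291) and Mir192 and Mir194-2 (259), named after their positions were seen. Of the 41, 9 lay on an H3K27ac peak of the region, and none of these 6 named hairpins did. For comparison, 49 of the 1005 lay on any distal H3K27ac peak, and 16.1 of the 41.6 Mb of the spans was acetylated. These counts are a description. Ctcfl, Gm40011 and Grap2 were each within 50 kb of 3 large regions, and many other genes were near 2. For Ctcfl and Gm40011 these were ranks 215, 333 and 458. For Grap2, an adaptor of T-cell receptor signalling, they were ranks 130, 166 and 424.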
